A study of Mus musculus with 8 samples.

Results

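The 38 genes described here are immediate early and activation feedback genes, chosen by symbol from the families AP-1, EGR, IER, NR4A, DUSP, ZFP36, BTG and RGS, the NF-kB inhibitors, and Cd69, Myc, Ppp1r15a and Gadd45b. Of the 53465 genes counted, the symbols of 37 members were found in the deposited normalized table, and Atf3, which had under 10 reads in all, was read from the count table. RNA-seq compared 4 KO samples, from tamoxifen-treated mice, with 4 WT samples, from untreated mice. All 8 samples were naive CD4 T cells (CD3+CD4+CD25-CD44low/-CD62L+) sorted from spleen and lymph node, and all carried the genotype Satb1fl/fl x CD4-CreERT2wt/+. Both groups therefore held the floxed Satb1 alleles and the tamoxifen-dependent Cre, whose expression follows CD4 sequences. Tamoxifen was given to the KO mice alone, so its own effect and that of the intended deletion cannot be told apart, and ages of the mice were not found in the labels.

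Immediate early genes are switched on within minutes of a stimulus from factors that the cell already holds, without new protein synthesis. In T cells, signals from the antigen receptor run through ERK, calcium and NF-kB to the AP-1, EGR and NR4A transcription factors. The same signals induce brakes of their own, among them phosphatases of MAP kinases (DUSP), accelerators of G protein shut-off (RGS) and inhibitors of NF-kB. The members also include proteins that shorten the life of mRNA (ZFP36 and BTG). Many of these transcripts are short-lived and also respond to handling during tissue dissociation and sorting.

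The libraries held 7544075 to 9253620 counted reads in KO and 5227758 to 21998174 in WT. Levels are in CPM, the count relative to the library total after TMM scaling. Satb1 itself stood at 855.1, 1032, 839.6 and 913.2 CPM in KO, against 987.2, 1015, 1046 and 1083 CPM in WT (log2 fold change -0.18, SE 0.059, adjusted p = 0.0582). It passed the threshold under 4 of 19 alternatives, which were limma-voom (adjusted p = 0.0404), library size alone (0.0364), no count filter (0.0191) and without Sample_2908_KO (0.00152). Gm36931, annotated on the same strand with 156 exon bases in common with Satb1, had 0.855, 1.32, 0.973 and 0.670 CPM in KO, against 7.14, 9.01, 10.5 and 10.99 CPM in WT. Every KO library lay far below every WT library there (33 reads in KO and 450 in WT; log2 fold change -3.30, SE 0.268, adjusted p = 2.86e-10). All 12 naive CD4 T cell markers were detected, with a summed level of 9184 to 9835 CPM in KO, against 9310 to 9732 CPM in WT. Myeloid and dendritic markers summed to 37.2 to 45.6 CPM in KO, against 27.03 to 55.2 CPM in WT, with S100a8 and S100a9 at 0 reads among the 12 genes. Lyz2, also among them, was uneven, at 4.641, 10.85, 12.21 and 4.553 CPM in KO, against 25.28, 0.0, 0.1337 and 10.73 CPM in WT. CD8 and NK markers (10 genes) summed to 20.8 to 26.3 CPM in KO, against 21.5 to 27.99 CPM in WT. The 9 B cell markers summed to 360.8 to 418.9 CPM in KO, against 449.1 to 487.2 CPM in WT and were nearly all Ighm (381.6 ± 22.0 CPM in KO, against 460.4 ± 16.2 CPM in WT, SD, n = 4 each). The 8 erythroid and platelet markers summed to under 1 CPM in every library, and Hbb-bs, Hbb-bt and Pf4 were at 0 reads.

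Of the 38 members, 34 had enough reads for the test over all 11772 genes, and 5 passed an adjusted p of 0.05 (edgeR, Benjamini-Hochberg). They were 14.7% of the tested members, where 6.39% of all tested genes passed. Rgs1, Cd69, Dusp5 and Rgs10 rose in KO, and Dusp6 fell. The 4 that rose were 11.8% of the tested members, where 3.98% of all tested genes rose. The 1 that fell was 2.94%, where 2.41% of all tested genes fell, a share close to the background. A change of at least 2-fold was called for Rgs1 alone (2.94% of the tested members, against 0.883% of all tested genes). The median log2 fold change of the tested members was 0.075, against -0.0005 for all tested genes. No member of the AP-1, EGR, IER, NR4A, ZFP36, BTG or NF-kB feedback families passed, nor did Myc or the stress genes. Among these 25 tested genes edgeR called 0, with 5 at an unadjusted p under 0.05, DESeq2 and limma-voom called 0, and limma-trend called 1, Jun. The 29 tested members that did not pass had log2 fold changes between -0.45 and 0.79, of which 22 lay within 0.25 of 0, with SE of 0.056 to 0.445. The libraries of the groups did not overlap in 4 tested members (11.8%), Rgs1, Cd69, Nr4a3 and Nfkbia, where the same held for 11.1% of all tested genes.

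The AP-1 genes encode the Fos and Jun proteins that pair to bind DNA. None of the 6 tested AP-1 genes passed the threshold, and the 3 Fos genes had positive and the 3 Jun genes negative estimates. Fos, the archetypal immediate early gene, had 93.5, 37.8, 77.2 and 157.8 CPM in KO, against 91.1, 54.6, 61.7 and 52.1 CPM in WT. The KO libraries spanned the whole WT range, with Sample_2908_KO below every WT library and Sample_2910_KO above all of them. The log2 fold change was 0.51 (SE 0.445, adjusted p = 0.641), with 0.12 without Sample_2910_KO and 0.77 without Sample_2908_KO. Fosb, a Fos relative, was low, at 3.41 ± 2.18 CPM in KO, against 2.04 ± 0.59 CPM in WT (SD, n = 4 each), with a log2 fold change of 0.79 (SE 0.377, adjusted p = 0.262), and 0.27 without Sample_2910_KO. Fosl2, which encodes the slower Fos relative FRA2, had 27.8, 21.3, 27.7 and 22.6 CPM in KO, against 22.8, 18.02, 22.0 and 17.3 CPM in WT (log2 fold change 0.31, SE 0.123, adjusted p = 0.148). Its KO values overlapped the upper WT values.

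Jun, the partner that can also pair with itself, had 94.2, 61.8, 74.7 and 116.9 CPM in KO, against 152.5, 117.0, 109.0 and 100.8 CPM in WT. Of the KO libraries, 3 lay below every WT library and Sample_2910_KO lay among them. The log2 fold change was -0.45 (SE 0.233, adjusted p = 0.390; limma-trend on the normalized values gave -0.49 and adjusted p = 0.0469). Junb, which antagonises Jun at some promoters, averaged 286.6 ± 88.8 CPM in KO, against 354.4 ± 45.5 CPM in WT (log2 fold change -0.30, SE 0.249, adjusted p = 0.616; -0.12 without Sample_2908_KO and -0.47 without Sample_2910_KO). Jund, the most constitutive Jun gene, averaged 56.2 ± 13.6 CPM in KO, against 68.0 ± 6.91 CPM in WT (log2 fold change -0.26, SE 0.181, adjusted p = 0.528; SD, n = 4 each for both genes). Within the groups, Sample_2908_KO was lowest in Fos, Jun, Junb and Jund. Junb shares 173 exon bases with Prdx2 on the opposite strand (1445 reads in KO and 2119 in WT), and Jun shares 232 with Junos (13 reads in each group). Jund shares 877 of its 1668 exon bases with Gm11175, also on the opposite strand (0 reads in each group). The library kit did not mark strand, so reads in those stretches cannot be assigned.

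**Figure D1:**
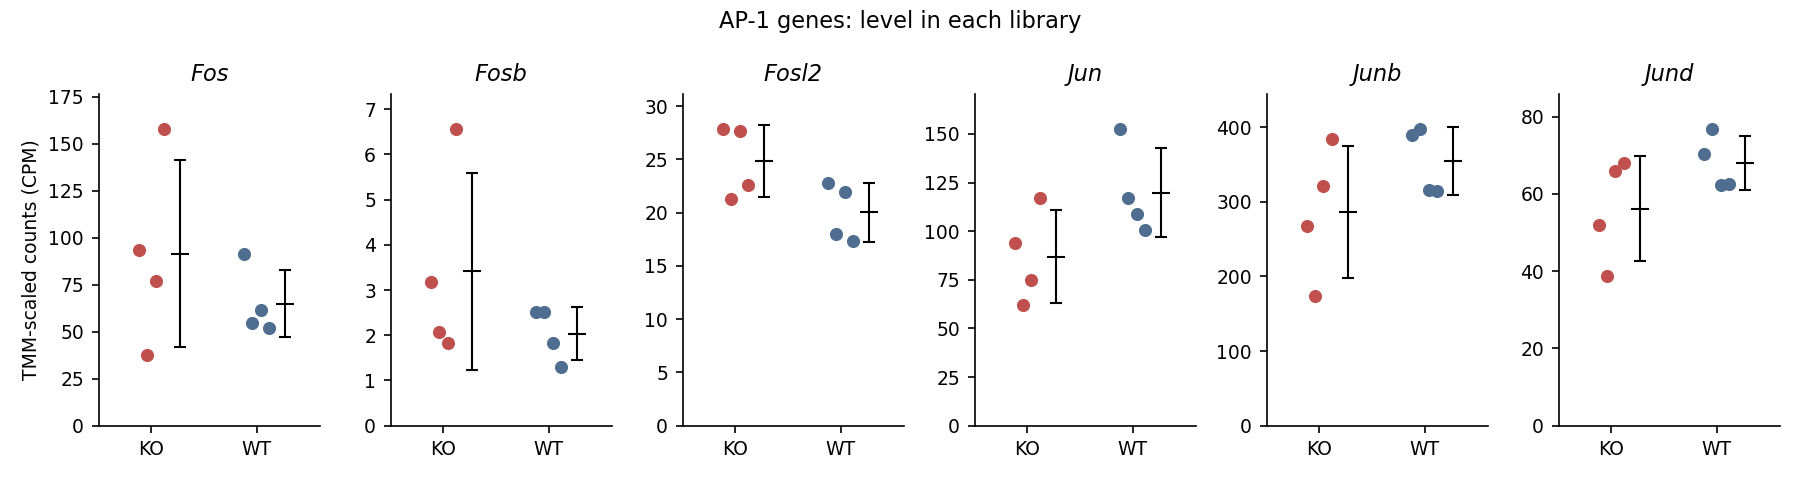
TMM-scaled counts (CPM, vertical axes from 0) of 6 AP-1 genes in the 4 KO (left) and 4 WT (right) libraries. Each point is 1 library, and the bar beside each group is the mean ± SD; the KO points of Fos run from 37.8 to 157.8 CPM, across the whole WT range.

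The 3 EGR genes encode zinc-finger factors induced through ERK and serum response factor. Egr1 had 84.6, 75.1, 80.8 and 83.2 CPM in KO, against 87.2, 105.4, 84.7 and 71.0 CPM in WT (log2 fold change -0.09, SE 0.088, adjusted p = 0.649). Egr2 and Egr3, which restrain T cell activation, averaged 14.9 ± 0.79 and 30.5 ± 2.27 CPM in KO, against 12.8 ± 1.81 and 33.8 ± 2.13 CPM in WT (SD, n = 4 each). Their log2 fold changes were 0.23 (adjusted p = 0.424) and -0.15 (adjusted p = 0.450). The groups overlapped for all 3 genes.

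Among the NR4A orphan nuclear receptors, Nr4a1, whose level follows the strength of antigen receptor signalling, had 47.9, 41.5, 59.9 and 58.5 CPM in KO, against 58.9, 47.0, 55.6 and 39.1 CPM in WT. Its log2 fold change was 0.05 (SE 0.148, adjusted p = 0.907). Nr4a3 had 16.5, 17.4, 19.0 and 19.7 CPM in KO, against 13.9, 15.9, 14.8 and 11.9 CPM in WT, and every KO library lay above every WT library. Its log2 fold change of 0.37 (SE 0.132) missed the threshold (adjusted p = 0.0979). Nr4a2 was near the floor of detection, with 19 reads over the KO libraries and 25 over the WT libraries.

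Ier2 and Ier5, small nuclear proteins induced early by growth signals, averaged 125.4 ± 24.5 and 128.9 ± 12.2 CPM in KO, against 136.9 ± 13.04 and 151.1 ± 16.6 CPM in WT (SD, n = 4 each). Ier5 had 134.1, 113.5, 126.1 and 142.1 CPM in KO, against 166.0, 164.9, 136.2 and 137.3 CPM in WT, where 3 KO libraries lay below all WT libraries. Its log2 fold change was -0.22 (SE 0.076, adjusted p = 0.0947), and that of Ier2 was -0.12 (adjusted p = 0.772). Ier5 passed the threshold under 4 of 19 alternatives. Myc, the growth regulator, averaged 69.9 ± 5.83 CPM in KO, against 77.8 ± 5.72 CPM in WT (SD, n = 4 each; log2 fold change -0.15, SE 0.075, adjusted p = 0.296).

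Dual-specificity phosphatases remove phosphate from both the tyrosine and the threonine that activate a MAP kinase. The family held a member that rose and a member that fell, and both are specific for ERK: Dusp5 acts in the nucleus and Dusp6 in the cytoplasm. Dusp5 (mm10 chromosome 19, 53529109 to 53542431, plus strand) had 34.8, 26.9, 37.8 and 40.8 CPM in KO, against 28.4, 21.3, 26.5 and 23.5 CPM in WT. Of the KO libraries, 3 lay above every WT library, and Sample_2908_KO lay inside the WT range. Dusp5 rose 1.40-fold (log2 fold change 0.49, SE 0.117, adjusted p = 0.00866). Without Sample_2910_KO the estimate was 0.41 and missed the threshold (adjusted p = 0.0519). Of its 2473 exon bases, 547 are shared with AC137853.2 on the opposite strand, whose reads are not analysed here, so reads in that stretch cannot be assigned to Dusp5 alone.

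Dusp6 (mm10 chromosome 10, 99263231 to 99267489, plus strand) had 22.3, 12.5, 18.2 and 19.8 CPM in KO, against 31.7, 26.0, 27.99 and 21.1 CPM in WT. The groups overlapped only through Sample_2907_KO and Sample_2915_WT. Dusp6 fell by 0.54 on the log2 scale (SE 0.151, adjusted p = 0.0306). The call was lost without any one of Sample_2908_KO, Sample_2909_KO, Sample_2910_KO, Sample_2911_WT, Sample_2913_WT or Sample_2914_WT (adjusted p between 0.0564 and 0.113), with limma-voom (0.0665), and without Sample_2911_WT and Sample_2914_WT together, where the estimate was -0.36 (0.354).

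The other phosphatases did not pass. Dusp2, an inducible nuclear phosphatase of haematopoietic cells, had 153.1, 145.7, 196.7 and 164.2 CPM in KO, against 151.5, 141.7, 150.1 and 141.5 CPM in WT (log2 fold change 0.17, SE 0.073, adjusted p = 0.187). Dusp1, which favours p38 and JNK, averaged 36.7 ± 9.21 CPM in KO, against 37.9 ± 6.41 CPM in WT (log2 fold change -0.03, adjusted p = 0.968). Dusp10, a phosphatase of p38 and JNK, averaged 67.4 ± 2.26 CPM in KO, against 65.7 ± 7.43 CPM in WT (log2 fold change 0.04, adjusted p = 0.840; SD, n = 4 each for both genes). Dusp4, an inducible nuclear phosphatase, was too low for the test, at 24 reads in KO and 48 in WT.

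The promoters of the 2 phosphatases that moved in opposite directions are shown with that of Fos, the textbook immediate early gene, so that their letters can be compared. RefSeq on GRCm38.p6 gives 250 bases before to 50 after each start, read 5′ to 3′ on the gene's strand, at chr19:53528895-53529194 for Dusp5, chr10:99262981-99263280 for Dusp6 and chr12:85473640-85473939 for Fos, all on the plus strand. Capitals mark matches to any of 7 motifs searched on both strands.
Dusp5: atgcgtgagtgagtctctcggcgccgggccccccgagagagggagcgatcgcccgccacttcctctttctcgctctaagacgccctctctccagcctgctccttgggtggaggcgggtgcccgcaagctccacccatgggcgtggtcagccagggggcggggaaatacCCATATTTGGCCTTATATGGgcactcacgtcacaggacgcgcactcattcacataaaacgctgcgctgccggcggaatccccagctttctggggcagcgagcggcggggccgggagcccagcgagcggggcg
Dusp6: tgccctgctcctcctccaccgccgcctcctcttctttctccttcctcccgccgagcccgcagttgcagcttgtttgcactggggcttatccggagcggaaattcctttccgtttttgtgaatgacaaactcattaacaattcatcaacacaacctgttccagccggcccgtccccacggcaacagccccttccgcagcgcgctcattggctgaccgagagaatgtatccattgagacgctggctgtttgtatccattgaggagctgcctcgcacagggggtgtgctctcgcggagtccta
Fos: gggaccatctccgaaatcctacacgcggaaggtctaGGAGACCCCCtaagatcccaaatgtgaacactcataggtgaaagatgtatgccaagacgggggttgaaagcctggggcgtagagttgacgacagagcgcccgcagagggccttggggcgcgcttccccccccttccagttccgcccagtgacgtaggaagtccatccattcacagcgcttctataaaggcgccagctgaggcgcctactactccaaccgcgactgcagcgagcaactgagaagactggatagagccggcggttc
The Dusp5 window holds a pair of CArG boxes, the motif bound by serum response factor, which begin 82 and 72 bases before the start and adjoin each other. The Dusp6 window holds no match to any of the 7 motifs. The Fos window holds 1 kappa B motif, which begins 214 bases before the start. Sites more than 250 bases before the start, or with letters other than those searched, were not covered. A missing match therefore does not show that Fos or Dusp6 lacks the element.

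The motifs were AP-1 (TGANTCA), the cyclic AMP response element (TGACGTCA), EGR (GCGNGGGCG), STAT (TTCNNNGAA), the NR4A element (AAAGGTCA), the CArG box and the kappa B motif. The promoter table used here matched 29 of the 38 members. Rgs1, Cd69, Egr1, Egr3, Ier2, Dusp4, Zfp36l2, Nfkbiz and Myc had no entry, so the shares below leave them out. For each matched member the promoter nearest the annotated gene start was used. It lay 53656 bases from that start for Dusp1, 34706 for Atf3, 21079 for Dusp10 and 12577 for Nr4a1. The EGR motif stood in 9 of the 29 (31.0%), against 5.55% of the 32851 promoters in the table, and the kappa B motif in 7 (24.1%), against 4.51%. The kappa B motif was found in the promoters of Fos, Fosb, Fosl2, Ier3 and Nr4a1, and of Nfkbia and Tnfaip3, both feedback inhibitors of NF-kB. The promoter of Nfkbid, another member of that family, held no match to it. The cyclic AMP response element stood in 3 (10.3%, against 1.79%), the CArG box in 2 (6.90%, against 1.63%), AP-1 in 2 (6.90%, against 7.81%), STAT in 2 (6.90%, against 8.30%) and the NR4A element in 0 (against 1.51%). No 2 different motifs shared bases in these windows. The promoters of the whole table were not matched to those of the members for expression or base composition, so the shares are a description only. A match describes letters and does not show that a factor is bound there.

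RGS proteins end signalling from chemokine and other receptors by speeding GTP hydrolysis on the G protein alpha subunit. Rgs1 (mm10 chromosome 1, 144242296 to 144249242, minus strand), which dampens chemokine responses of lymphocytes, had the largest fold change of the 34 tested members. It stood at 14.0, 12.7, 12.2 and 9.51 CPM in KO, against 3.28, 5.05, 4.63 and 3.46 CPM in WT. The lowest KO library lay above the highest WT library. Rgs1 rose 2.92-fold (log2 fold change 1.55, SE 0.195, adjusted p = 1.53e-06), on 415 reads in KO and 189 in WT.

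Rgs10 (mm10 chromosome 7, 128373621 to 128418758, minus strand), which acts on inhibitory G proteins, rose less. It had 145.7, 114.9, 142.8 and 133.2 CPM in KO, against 103.4, 125.4, 113.1 and 98.2 CPM in WT, and Sample_2908_KO lay inside the WT range. It rose 1.221-fold (log2 fold change 0.29, SE 0.078, adjusted p = 0.0250). The call was lost without any one of Sample_2907_KO, Sample_2909_KO, Sample_2910_KO, Sample_2911_WT or Sample_2915_WT (adjusted p between 0.0675 and 0.110), and without Sample_2911_WT and Sample_2914_WT together (0.169). Rgs2, which lies near Rgs1 on the same chromosome and acts on Gq, averaged 26.9 ± 2.84 CPM in KO, against 24.8 ± 1.21 CPM in WT (SD, n = 4 each), with a log2 fold change of 0.12 (adjusted p = 0.602). The difference between the changes of Rgs1 and Rgs2 was not tested.

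Cd69 (mm10 chromosome 6, 129267325 to 129275436, minus strand) encodes an early activation receptor that binds the sphingosine phosphate receptor S1PR1 and holds lymphocytes in tissue. It had 108.8, 121.9, 106.4 and 104.2 CPM in KO, against 66.6, 59.3, 71.7 and 67.4 CPM in WT. All KO libraries lay above all WT libraries. Cd69 rose 1.65-fold (log2 fold change 0.73, SE 0.072, adjusted p = 1.65e-08), the lowest adjusted p among the members. The summed levels of the regulatory and the memory T cell marker lists were higher in KO, as Rgs1 and Cd69 were. The genes of these lists were not of 1 direction. Of the 9 regulatory T cell markers, 2 rose and 0 fell. They summed to 154.4 to 236.7 CPM in KO, against 100.5 to 107.8 CPM in WT. Foxp3 averaged 93.4 ± 27.15 CPM in KO, against 8.41 ± 1.20 CPM in WT (SD, n = 4 each). Its log2 fold change was 3.45 (adjusted p = 0.000881). Without Foxp3 the markers summed to 99.3 to 124.0 CPM in KO, against 93.2 to 98.95 CPM in WT. The KO mean was lower for 3 of the 9, Nrp1, Capg and Itgae. The 11 memory T cell markers, of which 7 were tested, 3 rose and 1 fell, summed to 319.4 to 353.9 CPM in KO, against 250.5 to 288.9 CPM in WT. The KO mean was higher for 5 of the 11 and lower for 6. Il2rb (53.1 ± 5.83 CPM in KO, against 22.4 ± 3.53 CPM in WT) and Ahnak (146.0 ± 21.2 CPM in KO, against 111.6 ± 9.54 CPM in WT; SD, n = 4 each) made up most of the difference in the sum, while Cd44, a defining memory marker and part of the sort gate, fell by 0.34 on the log2 scale (adjusted p = 0.0262). Their part in the rise of Rgs1 and Cd69 was not tested. In bulk samples, more cells of a type and more RNA per cell cannot be told apart.

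**Figure D2:**
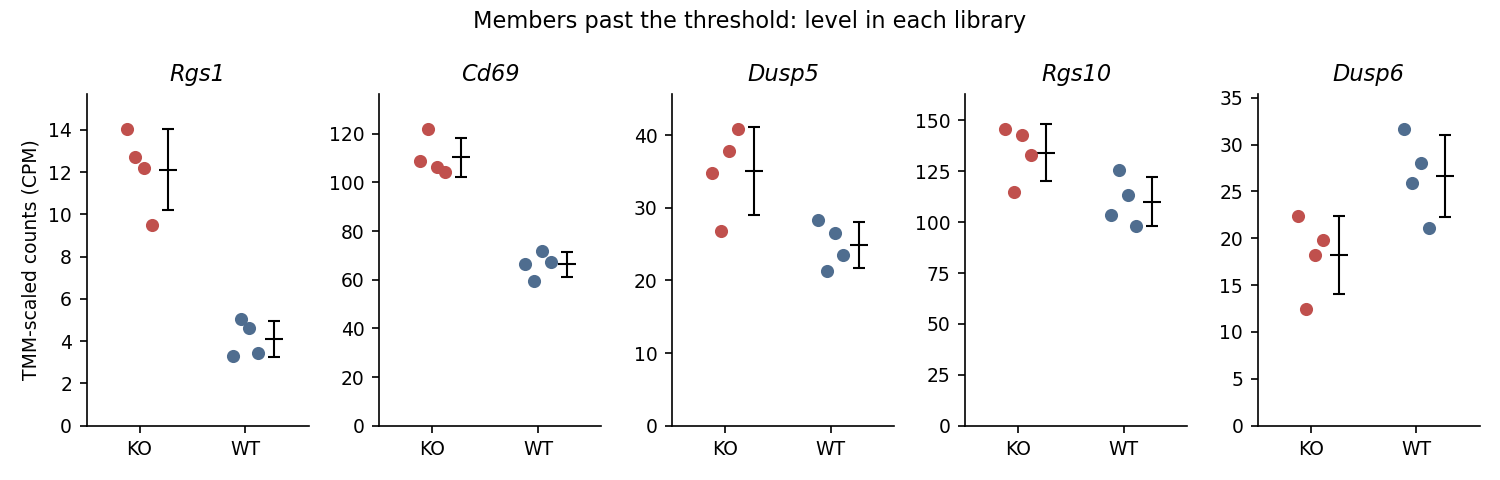
TMM-scaled counts (CPM, vertical axes from 0) of the 5 members past the threshold in the 4 KO (left) and 4 WT (right) libraries. Each point is 1 library, and the bar beside each group is the mean ± SD. Rgs1 and Cd69 separate the groups, while Dusp5, Rgs10 and Dusp6 overlap.

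The inhibitors of NF-kB showed small positive estimates that did not pass. Nfkbia, which encodes the classical inhibitor IkB alpha and is itself an NF-kB target, had 169.1, 174.9, 184.7 and 166.1 CPM in KO, against 160.6, 161.1, 159.4 and 141.8 CPM in WT. Every KO library lay above every WT library, and the log2 fold change was 0.16 (SE 0.060, adjusted p = 0.117). Nfkbid and Nfkbiz encode nuclear IkB proteins that act at particular NF-kB target genes. They averaged 70.7 ± 2.30 and 85.9 ± 9.11 CPM in KO, against 64.3 ± 4.66 and 83.9 ± 5.97 CPM in WT, with log2 fold changes of 0.14 (adjusted p = 0.326) and 0.05 (adjusted p = 0.820). Tnfaip3, which encodes the ubiquitin-editing enzyme A20, averaged 98.2 ± 8.42 CPM in KO, against 91.4 ± 11.01 CPM in WT (log2 fold change 0.11, adjusted p = 0.525; SD, n = 4 each for all 3 genes).

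The RNA-binding proteins of the ZFP36 family carry mRNAs with AU-rich elements to decay, and the BTG proteins recruit the CCR4-NOT deadenylase and help keep T cells quiescent. All 5 tested genes had small positive estimates, and the groups overlapped for each. Zfp36 had 337.8, 329.1, 345.6 and 374.7 CPM in KO, against 348.9, 366.6, 330.4 and 322.4 CPM in WT (log2 fold change 0.02, SE 0.057, adjusted p = 0.898). Zfp36l1, which shares 1672 exon bases with Gm26669 (59 reads in KO and 79 in WT), averaged 147.7 ± 15.6 CPM in KO, against 142.4 ± 12.4 CPM in WT, and Zfp36l2 averaged 595.8 ± 68.5 CPM in KO, against 557.2 ± 21.5 CPM in WT. Btg1 averaged 705.6 ± 25.8 CPM in KO, against 664.9 ± 49.1 CPM in WT, and Btg2 averaged 256.2 ± 5.61 CPM in KO, against 244.6 ± 17.0 CPM in WT (SD, n = 4 each for all 4 genes). Their log2 fold changes were 0.06 for Zfp36l1, 0.10 for Zfp36l2, 0.09 for Btg1 and 0.06 for Btg2, with SE of at most 0.073.

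Ppp1r15a, which encodes the GADD34 subunit that reverses the stress block on translation, had 101.1, 74.1, 111.6 and 134.6 CPM in KO, against 141.9, 122.2, 118.3 and 110.4 CPM in WT (log2 fold change -0.22, SE 0.186, adjusted p = 0.626). Its lowest library was Sample_2908_KO, as for Fos and Jun. Gadd45b, an activator of p38 signalling, averaged 6.67 ± 0.75 CPM in KO, against 5.91 ± 1.26 CPM in WT (SD, n = 4 each; log2 fold change 0.22, adjusted p = 0.654).

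The 4 members with too few reads were described by pooled reads, scaled to library size. Atf3, a stress-induced ATF factor, had 4 reads in KO and 3 in WT, a KO to WT ratio of 1.75 with an exact 95% counting interval of 0.296 to 11.96. Ier3, an early survival gene, had 5 reads in KO and 7 in WT (ratio 0.939, 0.235 to 3.44). The ratio of Nr4a2 was 0.999 (0.520 to 1.89) and that of Dusp4 was 0.657 (0.385 to 1.09). For Dusp4 an exact 2-sided permutation test on CPM of the 70 possible splits into KO and WT returned p = 0.400, and for the other 3 genes p = 1.0; no p under 0.0286 can be reached. The intervals show the ratios that counting error alone allows. They leave out the spread between libraries and are not limits of detection.

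To compare levels between members, CPM were divided by kilobases of merged exons. Merged exons pool all annotated transcripts of a gene, so they can be longer than the main mRNA. For Rgs1 (6947 bases) and Zfp36 (3470 bases) they cover the whole annotated span of the gene, which lowers the value per kilobase. The order of members depends on these lengths. On this scale Zfp36l2 was highest, at 168.8 CPM per kilobase in KO and 157.8 in WT, followed in KO by Btg1 (133.7 in KO, 126.0 in WT), Junb (124.6 in KO, 154.0 in WT), Nfkbia (107.9 in KO, 96.7 in WT) and Zfp36 (99.9 in KO, 98.6 in WT). Genes of the ZFP36, BTG and NF-kB inhibitor families thus held 4 of these 5 places. Fos stood at 38.9 CPM per kilobase in KO and 27.6 in WT, and Cd69 at 16.9 in KO and 10.2 in WT. Rgs1, with the largest change, was among the lowest tested members, at 1.75 CPM per kilobase in KO and 0.591 in WT.

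The members' spread between libraries of 1 group had a higher median than that of all genes. Over the 31 tested members with at least 10 CPM, the median coefficient of variation was 10.6% in KO and 10.9% in WT, against 7.82% in KO and 7.25% in WT over all 8496 tested genes at that level. For the 5 AP-1 genes among them it was 27.6% in KO and 13.8% in WT. After the mean of each group was taken away, the mean correlation over the 561 pairs of tested members was 0.273 across the 8 libraries, which is given as a description.

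By the median deviation from the group's mean log2 level, the lowest and highest libraries were Sample_2908_KO (-0.170) and Sample_2910_KO (0.094) in KO, and Sample_2915_WT (-0.132) and Sample_2913_WT (0.104) in WT. In Sample_2908_KO, 28 of 34 tested members lay below the KO mean, and in Sample_2910_KO 26 lay above it. In Sample_2915_WT 30 of 34 lay below the WT mean, and in Sample_2913_WT 23 lay above it. The median deviation of the 6 tested AP-1 genes was -0.475 (log2) in Sample_2908_KO and 0.473 in Sample_2910_KO, where the median of all tested genes was 0.006 and 0.0. Heat shock and handling genes (14 tested) were highest in libraries other than Sample_2910_KO and Sample_2913_WT. They lay above the group mean in 13 of 14 cases in Sample_2907_KO (median deviation 0.274) and in all 14 in Sample_2911_WT (0.475), with sums of 4519 CPM in Sample_2907_KO and 3793 CPM in Sample_2911_WT. The sums were 3345 to 3643 CPM in the other KO libraries and 2564 to 2685 CPM in the other WT libraries. Of these 14 genes, 2 rose in KO and 0 fell in the edgeR fit, where all 14 estimates were positive (0.01 to 1.121, median 0.246) and 12 KO means were higher, and DESeq2 called 3, limma-trend 5 and limma-voom 6. Hsph1, a heat shock chaperone, averaged 168.5 ± 53.5 CPM in KO, against 79.6 ± 38.6 CPM in WT, without overlap (SD, n = 4 each; log2 fold change 1.121, adjusted p = 0.177). Among the 2 called by edgeR, the lowest adjusted p was that of Hspd1, a mitochondrial chaperone (log2 fold change 0.32, adjusted p = 0.00498). In some libraries the handling and AP-1 genes deviated alike. All 14 handling and all 6 AP-1 genes lay above the group mean in Sample_2911_WT (AP-1 median deviation 0.234). In Sample_2908_KO 0 of 14 (median deviation -0.098) and 0 of 6 did. In Sample_2915_WT 3 of 14 and 0 of 6 lay above it, and in Sample_2910_KO 5 of 14 and 5 of 6. The part of handling in the members' values was not tested.

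**Figure D3:**
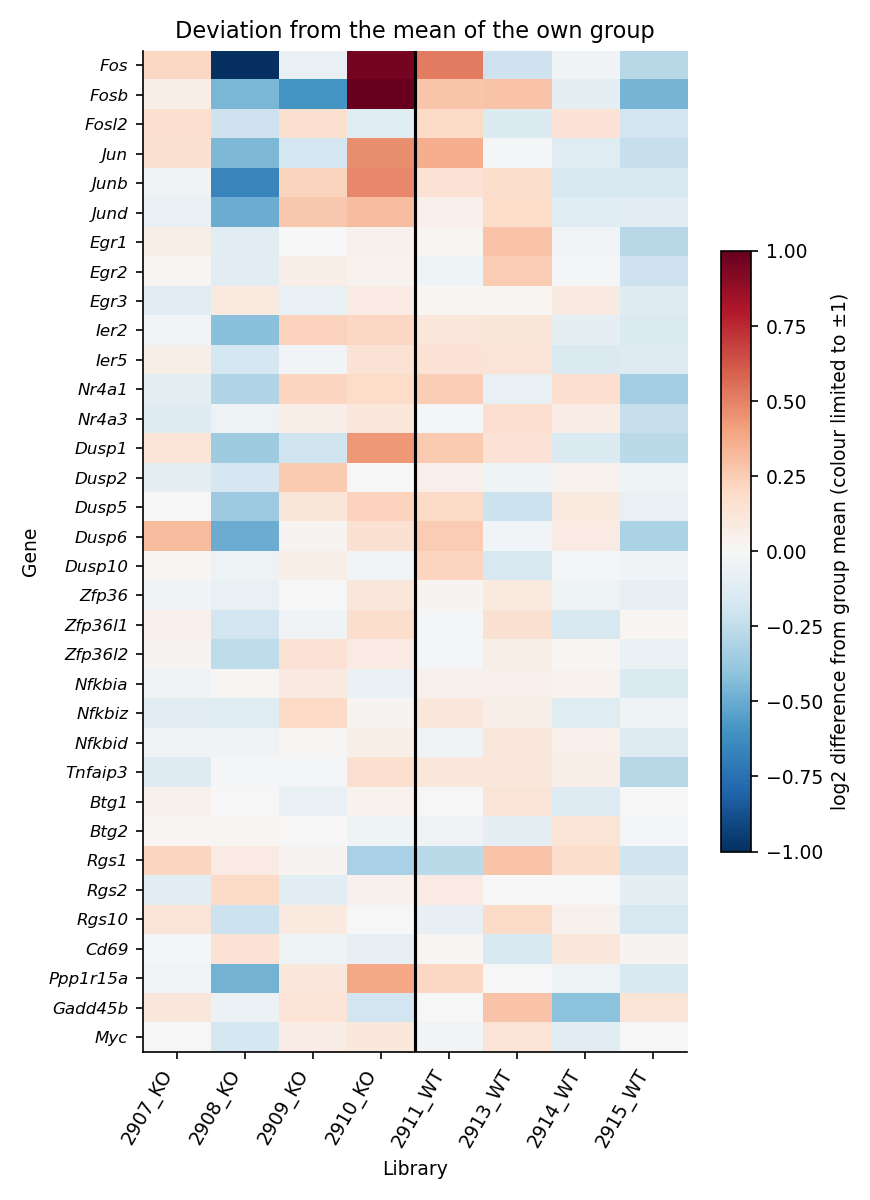
Log2 difference of each tested member (rows) from the mean of its own group in each library (columns, KO left of the black line and WT right of it); colour runs from blue (lower) to red (higher) and stops at ±1. Sample_2908_KO is blue for Fos, Jun, Junb, Jund, Dusp6 and Ppp1r15a, and Sample_2910_KO is red for Fos, Fosb, Jun and Junb.

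Other genes of the same pathways were taken from lists chosen by textbook role, with earlier results of these data known. Together they held 162 tested genes besides the members, of which 19 rose and 3 fell, with a median log2 fold change of 0.058. Over all tested genes 3.98% rose and 2.41% fell. The counts of each list stand beside these shares as a description only, because the genes were not chosen blind to the results. Among other AP-1, ATF and small Maf factors, 3 of 17 rose and 1 fell. Those that rose were Atf4, the stress-response factor (0.27, adjusted p = 0.00238), Mafg, a small Maf partner (0.44, adjusted p = 0.0103), and Crem, a cyclic AMP-responsive factor (14.5 ± 1.94 CPM in KO, against 9.37 ± 1.73 CPM in WT, SD, n = 4 each; adjusted p = 0.0110). Bach2, a repressor at AP-1 sites that keeps T cells naive, fell by 0.23 (adjusted p = 0.0107). Of 8 EGR partners and SRF factors, the EGR corepressors Nab1 (0.22, adjusted p = 0.0233) and Nab2 (0.37, adjusted p = 0.0254) rose.

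Of 25 other immediate early genes, 4 rose and 1 fell. Id2, an inhibitor of E proteins (0.80, adjusted p = 1.4e-08), and Klf6, a Kruppel-like factor induced early (0.65, adjusted p = 5.04e-08), rose, as did the glucose transporter Slc2a3 (0.46) and the glucocorticoid-induced Tsc22d3 (0.55). Klf6 averaged 245.8 ± 27.4 CPM in KO, against 156.4 ± 7.35 CPM in WT (SD, n = 4 each). Arc, better known from neurons, fell by 0.79 (adjusted p = 0.0409). It is named as the only one that fell, after its values were seen.

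Of 19 NF-kB subunits and other inhibitors 3 rose and 0 fell. They were Ikbkb, a kinase that marks IkB for destruction (0.34, adjusted p = 3.2e-05), and the subunit genes Nfkb2 (0.40, adjusted p = 0.00131) and Nfkb1 (0.26, adjusted p = 0.00240). Of 22 other MAP kinase phosphatases and ERK pathway genes, only Rasa1, which switches off RAS, rose (0.31, adjusted p = 0.000336). Gna13, a G protein subunit, was the 1 of 10 in the wider RGS and G protein list (0.21, adjusted p = 0.0152), and Cnot6l, a deadenylase, the 1 of 16 mRNA decay partners (0.27, adjusted p = 0.00580).

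Of 24 TCR-induced effector and NFAT genes, 4 rose and 1 fell. Pdcd1, which encodes the inhibitory receptor PD-1, averaged 8.54 ± 1.73 CPM in KO, against 3.57 ± 0.66 CPM in WT (SD, n = 4 each; log2 fold change 1.2196, adjusted p = 0.000318). Irf4, a factor that follows antigen receptor strength, averaged 12.1 ± 1.35 CPM in KO, against 6.52 ± 0.83 CPM in WT (SD, n = 4 each; log2 fold change 0.91, adjusted p = 0.000647). Izumo1r, the folate receptor family gene, rose by 0.35 (adjusted p = 0.00108) and the lymph node homing receptor gene Ccr7 fell by 0.19 (adjusted p = 0.0221). None of 9 MYC partners and none of 14 stress response partners passed (edgeR lowest adjusted p 0.175 and 0.0632, with 1 and 5 at an unadjusted p under 0.05). DESeq2 and limma-voom called 0 and 0 of the MYC partners, and 1 and 3 of the stress response partners.

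**Figure D4:**
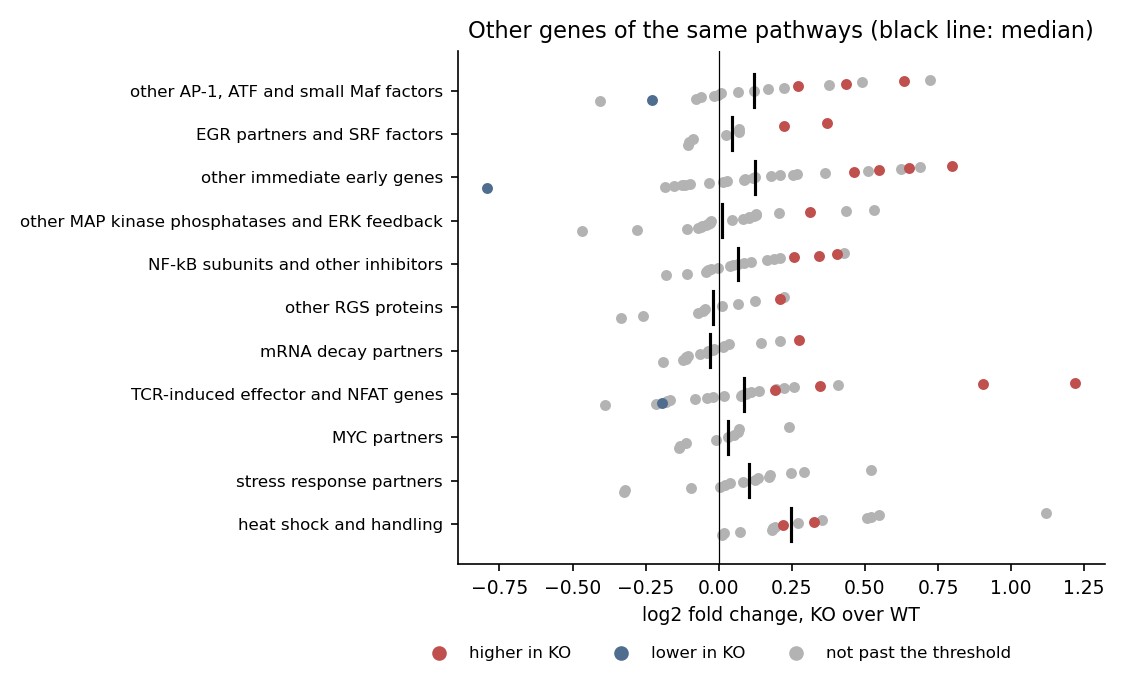
Log2 fold change, KO over WT (horizontal axis), of genes in the related lists and the heat shock and handling list (rows). Each point is 1 gene, red where it rose, blue where it fell and grey where it did not pass; the black line is the median of the list, from -0.028 for mRNA decay partners to 0.246 for heat shock and handling genes.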

How the data were processed

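Poly(A) RNA libraries were made with the TruSeq RNA v2 kit, which does not mark strand, and read as single reads, per the labels' protocols. Per the submitters' processing notes, build mm10 was used with DESeq2 1.22.2 in R 3.5.3, CASAVA 1.8.2 and FastQC; the aligner, counter and annotation were not given in the sources used here. Raw read counts, whole numbers, were deposited by the authors for 53465 genes. The deposited normalized signal table holds 16418 genes, with counts divided by 1 size factor per sample by the authors, and was used for gene symbols and in 2 alternatives.

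The test on counts was that of edgeR 4.0.16 under R 4.3.3 (robust quasi-likelihood F test, TMM, filterByExpr) on all 8 samples, with Benjamini-Hochberg adjustment over 11772 genes and a threshold of 0.05. Fold changes are KO over WT, and SE is the log2 fold change, unsigned, divided by the root of the F statistic. The labels do not say that samples came from separate mice, so p-values measure the spread between samples, which may be technical. All members are named; of each related list, the members past the threshold with the lowest adjusted p, at most 4. Members and lists were chosen with earlier results of these data known. Gene positions and exon lengths are from GENCODE M21 (GRCm38, the assembly behind mm10). The test was checked on simulated counts. Intervals cover counting error only. Alternatives used DESeq2 1.42.0, limma 3.58.1 (voom and trend), other scalings and filters, thinning, and leaving out samples.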

Additional observations from a re-analysis of the deposited data

Results flagged for a closer look

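In 2 of 76 groups of 4 libraries (38 members in KO and in WT), 1 library stood apart from the other 3 by more than Dixon's 95% critical value; chance gives about 1 in 20 groups. Both concern Sample_2915_WT and feedback inhibitors of NF-kB. Nfkbia stood at 141.8 CPM in Sample_2915_WT, against 159.4 to 161.1 CPM in the other WT libraries. Tnfaip3 stood at 75.0 CPM in Sample_2915_WT, against 94.6 to 98.0 CPM in the other WT libraries. In the same library 30 of 34 tested members lay below the WT mean.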

How the results depend on the processing

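The 34 tested members were refitted under 19 alternatives, which gave 646 results: 604 kept their direction and side of the threshold, 15 lost a call, 8 gained one and 19 changed sign. Rgs1 (log2 fold change 1.45 to 1.77) and Cd69 (0.67 to 0.79) kept their calls in all 19. The number of members called higher was 2 to 6 when single libraries were left out, and the number called lower 0 to 1. Without Sample_2910_KO, and likewise without Sample_2914_WT, Dusp6 was not called and Ier5 was called lower (edgeR adjusted p = 0.04875 and 0.04465). Called lower were 0 with limma-voom (5 at an unadjusted p under 0.05; 1 with DESeq2) and 0 without Sample_2911_WT and Sample_2914_WT together (2 at an unadjusted p under 0.05 with edgeR), and 2 with library size alone and with no count filter (Dusp6 and Ier5) and with limma-trend at a pseudocount of 1 or 5 (Dusp6 and Jun). The highest count, 6, came without Sample_2908_KO, where Dusp2 (0.23) and Zfp36l2 (0.17) were also called, and the lowest, 2, without Sample_2910_KO. The cause of these shifts was not tested. Changes of sign concerned 9 members with estimates near 0, and none passed the threshold. When single libraries were left out, Egr1 ranged from -0.185 to 0.001, Ier2 from -0.201 to 0.005, Nr4a1 from -0.059 to 0.149, Dusp1 from -0.186 to 0.088, Dusp10 from -0.004 to 0.106, Zfp36 from -0.017 to 0.053, Zfp36l1 from -0.002 to 0.119 and Nfkbiz from -0.029 to 0.089. Dusp1 was 0.029 with limma-voom, and without Sample_2911_WT and Sample_2914_WT together Dusp1 was 0.032, Zfp36l1 -0.026 and Gadd45b -0.015. No paired analysis was possible because the groups share no sample numbers. Depth limits Atf3, Ier3, Nr4a2 and Dusp4, which had at most 72 reads each over all libraries.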

Other observations

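Within a library, ratios of 2 members' counts (not per length) remove the library scale. These pairs were chosen after their values were seen, so they are given with no test. The ratio of Fos to Jun was 0.994, 0.612, 1.03 and 1.35 in KO, against 0.598, 0.467, 0.567 and 0.517 in WT. All KO ratios lay above all WT ratios, although neither gene passed the threshold alone, and the lowest KO ratio, in Sample_2908_KO, was close to the highest WT ratio, in Sample_2911_WT. The ratio of Dusp5 to Dusp6, the nuclear and the cytoplasmic ERK phosphatase, was 1.56, 2.15, 2.08 and 2.06 in KO, against 0.896, 0.819, 0.948 and 1.11 in WT, without overlap. Dusp5 was called higher and Dusp6 lower in these same values, so their ratio gives no separate support. The share of all member pairs whose ratios do not overlap is not given here. The ratio of Fosb to Junb overlapped, at 0.0117 ± 0.0047 in KO and 0.00568 ± 0.0011 in WT (SD, n = 4 each).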
